A study of Mus musculus with 4 samples.

Results

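Osteoblasts that carry Wif1 together with type I collagen were examined in the tibia of a newborn mouse. A barcode was taken as a Wif1 osteoblast when it had at least 3 UMIs (unique molecular identifiers, which count captured transcripts) of Wif1 and at least 20 Col1a1 UMIs per 10000. It also had to lie under limits on genes of other cell types, namely 5 UMIs of Mmp9, 3 per 10000 of Ifitm5, 10 of Aspn, 20 of Cxcl12 and 50 of Col2a1, with at most 1 UMI of Ptprc and fewer than 5 of Top2a and Mki67 together. Of 14181 barcodes, 8256 had at least 1600 genes and at most 10% mitochondrial UMIs, and 200 of these (2.42%) met the rule. The cells came from the proximal and distal tibia of 1 male mouse at postnatal day 6, with the cells of 2 tibiae pooled into 1 library that was sequenced as 4 entries. Its genotype was Col10a1Cre;Rosa26-Tdtomato;Irx3 +/Δ;Irx5 +/-, so every cell was heterozygous for the homeobox gene Irx5, while by the study's text the deletion of an allele of its relative Irx3 is made by the Cre. No wild-type animal was compared, and the animal had no special treatment. The Cre is driven by Col10a1, which is active in hypertrophic chondrocytes (HCs), so HCs and their descendants are marked by a tdTomato transcript that ends in the woodchuck hepatitis virus element WPRE. With 1 mouse there is no replicate: intervals are 95% intervals for counting error only, no test or p-value is given, and cells are not replicates.

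Wif1 encodes a secreted protein that binds Wnt ligands and keeps them from their receptors, and Wnt signalling drives osteoblast formation. Osteoblast precursors turn on Runx2, then Sp7 and Alpl, the alkaline phosphatase that frees phosphate for mineral. They go on to lay down collagen I with Ibsp and Spp1, and mature cells add osteocalcin from Bglap and Bglap2. Cells that become buried as osteocytes turn on Dmp1, Phex and Sost. Vcan encodes versican, a large proteoglycan of loose provisional matrix, Limch1 a regulator of non-muscle myosin, and Ndnf a secreted factor.

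On the GENCODE M21 annotation of GRCm38, Wif1 lies at chr10:121033960-121100650 with up to 10 exons in a transcript, Vcan at chr13:89655312-89742509 with up to 15, Limch1 at chr5:66745827-67057158 with up to 26, and Ndnf at chr6:65671590-65712326 with up to 4. The promoter of Wif1 is set here beside those of Mmp13, Spp1 and Bglap, because the latter 3 genes varied widely among the Wif1 osteoblasts and are known targets of Runx2. Each window runs from 250 bases before to 50 bases after a RefSeq gene start (GRCm38.p6), 5′ to 3′ on the gene's strand. Capitals mark ACCACA or its reverse complement TGTGGT, letters found in RUNX binding sites, searched on both strands. The Wif1 window (chr10:121033754-121034053, plus strand) has no match. That of Mmp13 (chr9:7272264-7272563, plus strand) has 1, whose first base lies 118 bases before the start, that of the first start of Spp1 (chr5:104434861-104435160, plus strand) has 1 at 128 bases before it, and that of Bglap (chr3:88384417-88384716, minus strand) has 1 at 132 bases before it. The window of another start of Spp1 (chr5:104435942-104436241, plus strand), which is not printed, has no match.
Wif1: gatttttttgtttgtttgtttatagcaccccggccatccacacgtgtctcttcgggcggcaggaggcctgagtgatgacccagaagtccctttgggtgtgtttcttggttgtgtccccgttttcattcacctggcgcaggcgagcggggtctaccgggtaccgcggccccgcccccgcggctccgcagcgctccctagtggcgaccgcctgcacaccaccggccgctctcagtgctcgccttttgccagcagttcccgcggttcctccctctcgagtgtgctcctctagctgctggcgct
Mmp13: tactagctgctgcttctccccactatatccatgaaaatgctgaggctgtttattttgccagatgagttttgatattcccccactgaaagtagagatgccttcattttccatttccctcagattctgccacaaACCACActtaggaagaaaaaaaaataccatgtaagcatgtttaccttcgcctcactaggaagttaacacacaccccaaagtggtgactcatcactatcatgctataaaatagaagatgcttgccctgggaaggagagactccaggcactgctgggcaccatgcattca
Spp1: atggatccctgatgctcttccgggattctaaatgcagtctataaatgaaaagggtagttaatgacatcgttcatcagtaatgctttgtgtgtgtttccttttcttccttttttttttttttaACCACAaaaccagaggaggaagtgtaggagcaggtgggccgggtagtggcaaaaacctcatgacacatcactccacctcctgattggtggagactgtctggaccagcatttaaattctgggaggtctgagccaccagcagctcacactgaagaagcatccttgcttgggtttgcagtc
Bglap: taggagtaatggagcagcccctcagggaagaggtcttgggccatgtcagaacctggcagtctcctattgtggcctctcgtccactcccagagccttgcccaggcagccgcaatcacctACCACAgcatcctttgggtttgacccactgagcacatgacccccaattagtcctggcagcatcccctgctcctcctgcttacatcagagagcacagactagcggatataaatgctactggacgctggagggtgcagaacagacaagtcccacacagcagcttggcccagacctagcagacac

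These letters occur in 16.8% of all 32851 promoters of that length and in a promoter of 18.9% of 27025 genes. Of the 14 mineralization genes with a promoter in the reference, 6 have them in one. By promoters, that is 6 of the 23 of these genes (26.1%). Mmp13, Spp1 and Bglap were picked as known targets of Runx2, so their matches test nothing. A match describes the letters only.

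Wif1 itself ranged from 3 to 49 UMIs per cell with a median of 9, and the 200 cells held 2452 of the 10207 Wif1 UMIs of the barcodes kept (24.0%). On the scale of UMIs per 1000000 of all UMIs in the group (CPM), its level was 1073 (1030 to 1116). The cells had 4409 to 29907 UMIs (median 10464.5) and 1683 to 5981 genes (median 3063.5), and 1 of them was called a doublet. Col1a1 reached up to 1249 per 10000 with a median of 64.9, so the cells differed widely in collagen output. Both genes chose the cells, and these values are a description.

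The limit on Wif1 cut through a gradient. Of the 341 Col1a1-rich cells under all other limits, 102 had no Wif1 UMI, 22 had 1, 17 had 2, 53 had 3 to 5, 59 had 6 to 10 and 88 had more than 10. Just outside the limit were the 17 cells with 2 UMIs and just inside it 22 cells with 3. Limch1 stood at 93.9 CPM in cells with 2 Wif1 UMIs, 236 with 3 to 5, 353 with 6 to 10 and 712 with more than 10. Tnc (tenascin C, an extracellular glycoprotein) went from 469 CPM with no Wif1 UMI to 2129, 2392 and 3144 CPM in the bands inside the limit, and Alpl from 201 to 828, 1192 and 1313 CPM. Vcan did not follow the whole gradient, with 390 CPM at no Wif1 UMI, 163 at 2 and 969 above 10. These genes therefore had their highest levels in the cells richest in Wif1, while Col1a1 was lowest there, at 15286 CPM.

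Wif1 was not particular to the 200 cells. Of 902 kept barcodes with at least 3 Wif1 UMIs, 166 were kept out by Ifitm5 alone, 60 by low Col1a1 alone, 48 by Top2a and Mki67, 41 by Aspn, 21 by Mmp9, 12 by Col2a1, 11 by Cxcl12 and 10 by Ptprc, and 333 lay past more than 1 limit. Among Col1a1-rich cells, 3 or more Wif1 UMIs were found in 58.7% (53.2 to 63.9) of the 341 cells under the other limits, in 58.3% (40.8 to 74.5) of 36 cells past the Mmp9 limit alone, in 56.1% (50.2 to 61.8) of 296 past that on Ifitm5, and in 23.7% (17.6 to 30.7) of 173 past that on Aspn. The cutoff counts UMIs, and cells with Ifitm5 were deeper, with median depths of 17794 UMIs with Wif1 and 18693 without, than cells under the limits, with 10464.5 and 8998.5. By level, Wif1 was at 365 CPM in the cells with both Wif1 and Ifitm5, against 1073 in the Wif1 osteoblasts. Aspn-rich cells had the smallest of these shares.

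The label was checked against its markers. Vcan was at 694 CPM (660 to 729), Limch1 at 476 (448 to 505) and Ndnf at 59.5 (49.9 to 70.4). In leukocytes (at least 3 Ptprc UMIs) Limch1 was at 11.8 CPM, Ndnf at 2.02 and Vcan, which monocytes express, at 33.1. After thinning each cell to 5000 UMIs (2 shallower cells left out), Vcan was found in 76.8% of cells (70.3 to 82.5), Limch1 in 66.2% (59.1 to 72.7) and Ndnf in 21.7% (16.2 to 28.1). The shares in leukocytes were 12.2%, 2.88% and 1.12%, and the unthinned shares in Wif1 osteoblasts 84%, 77.5% and 33.5%, at median depths of 10464.5 UMIs in Wif1 osteoblasts and 12781.5 in leukocytes. Vcan and Limch1 were found together in 135 of the 200 cells, all 3 genes in 53, and none of the 3 in 12. Together with Wif1 the 3 genes summed to 2302 CPM, of which Wif1 made 1073. In the 166 cells with both Wif1 and Ifitm5 this sum was 511 CPM, of which Wif1 made 365. In the 60 Wif1 cells low in Col1a1 it was 2477 CPM, of which Wif1 made 1065. Vcan, Limch1 and Ndnf thus did not go with Wif1 in every group. The osteoblast lineage markers were present too, with Runx2 (the lineage's first transcription factor) at 214 CPM, Sp7 (the factor that acts after it) at 80.9, Alpl at 1143 and Ibsp (bone sialoprotein, which binds mineral) at 2887, and 178 cells (89%) had a UMI of Runx2 or Sp7.

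**Figure D1:**
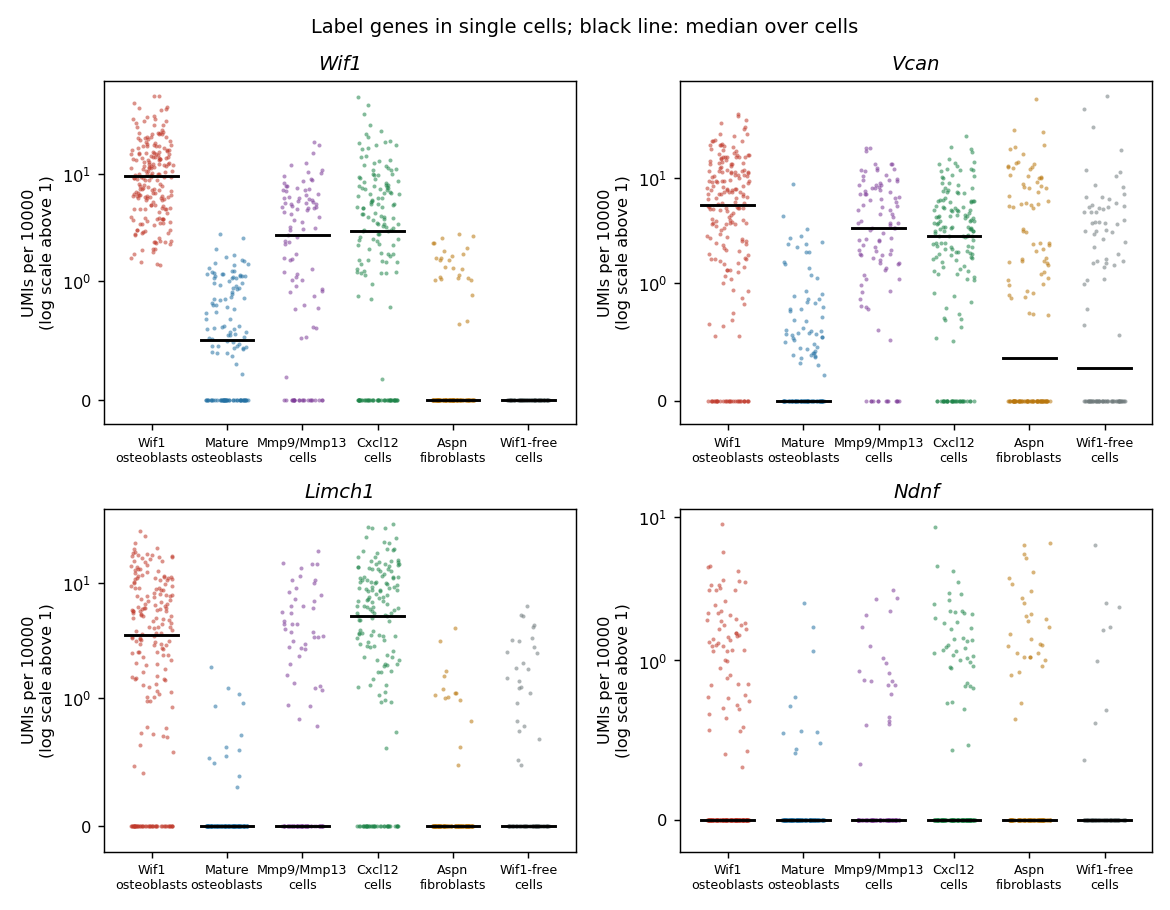
Wif1, Vcan, Limch1 and Ndnf in UMIs per 10000 (vertical axis, log scale above 1) in single cells of 6 groups (horizontal axis), with the median over cells as a black line. Wif1 was used to choose the first group and leave it out of others; Vcan has its highest median in the Wif1 osteoblasts and Limch1 in the Cxcl12 cells followed by the Wif1 osteoblasts, both have a median of 0 in mature osteoblasts, and Ndnf has a median of 0 in every group.

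By osteocyte genes, the label immature fitted most of the cells and not all of them. The rule caps Ifitm5, so that gene cannot check the label. Dmp1, a matrix phosphoprotein of osteocytes, was at 411 CPM, but 145 cells had no Dmp1 UMI and 17 cells with 5 or more held 93.2% of its UMIs. The same 17 cells held 84.3% of the UMIs of Phex (an osteocyte peptidase), all of those of Sost (a secreted Wnt inhibitor) and 45.8% of those of Ibsp, against 3.85% of those of Vcan and 4.60% of those of Limch1. Their median Col1a1 was 910 per 10000 and their median Limch1 was 0. These cells were chosen after their values had been seen. In the other 183 cells Dmp1 was at 30.9 CPM (23.8 to 39.5), Phex at 42.5 (34.1 to 52.4) and Sost at 0, while Wif1 was at 1093, Vcan at 737, Limch1 at 502 and Bglap at 1122. The Dmp1, Phex and Sost levels of the whole group were thus set by 8.5% of its cells. Among the other 183 cells, the 39 with 200 or more Col1a1 UMIs per 10000 had Bglap at 3539 CPM, Limch1 at 172 and Vcan at 374. The 78 cells with 20 to 49 had 215, 821 and 1064 CPM. Cells with much Bglap and less Limch1 and Vcan were therefore not limited to the 17.

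Of the other matrix genes, Spp1 (osteopontin) was at 20850 CPM and ranged from 0 to 3314 UMIs per cell with a median of 122. Tnc was at 2645 CPM and found in 190 cells. Mmp13 (collagenase 3, which cleaves collagens I and II) was at 2221 CPM (2160 to 2283), and Mmp14, a membrane-bound metalloproteinase, at 633. Bglap was at 1302 CPM, but its median was 1 UMI per cell and its highest value 391. Of the hormone and osteoclast axis, Pth1r, the parathyroid hormone receptor, was at 297 CPM and found in 171 cells, Csf1 (a growth factor of osteoclast precursors) was at 156 CPM, and Tnfsf11 (RANKL, which drives osteoclast formation) at 83.1, found in 88 cells. Mmp13 and Bglap were thus concentrated in some of the cells, while Tnc and Pth1r were spread over most of them.

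Markers of other cell types were present at levels that differed widely between lists. Endothelial markers (6 of 6 detected) summed to 30.6 CPM with Pecam1 leading, and pericyte markers (6 of 6) to 127 with Cspg4 leading. Of the 6 osteoclast markers Ocstamp, Dcstamp and Atp6v0d2 were at 0, and Ctsk made up 162 of the 174 CPM. Leukocyte markers (8 of 8) summed to 253 CPM with S100a9 at 111, against 33821 in leukocytes. Chondrocyte markers (8 of 8) summed to 1304 CPM with Col2a1 at 533 and against sums of 5330 in leukocytes and 13750 in erythroid cells, which should lack them. Of the marrow stroma markers Adipoq was at 0 and the sum was 376 CPM, led by Cxcl12 at 222, and cycling markers (6 of 6) summed to 152. Fibroblast markers (8 of 8) summed to 1004, led by Postn at 736. Erythroid markers (6 of 6) summed to 23256 CPM with Hbb-bs at 12699, but the median cell had 251 UMIs of Hbb-bs per 1000000. Leaving out the 10 cells with more than 1% of UMIs from Hbb-bs put it at 281 CPM, with Wif1 at 1117, Vcan at 733 and Limch1 at 495. The part of these RNAs in the comparisons was not tested.

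Placed by genes other than those of the rule, most neighbours of the Wif1 osteoblasts were of their own kind. Over the 886 Col1a1-rich cells, 60.1% of the 15 nearest neighbours of a Wif1 osteoblast were Wif1 osteoblasts, which made up 22.6% of all cells. Cells with both Wif1 and Ifitm5 gave 10.3% of the neighbours (18.7% of all cells), mature osteoblasts 2.70% (14.7%), Aspn fibroblasts 2.20% (14.9%) and cells without Wif1 4.57% (11.5%). The cells with 1 or 2 Wif1 UMIs gave 4.87% (4.40%), and the cells with Mmp9 but under 3 Wif1 UMIs 1.83% (1.69%). The last 2 groups thus supplied neighbours in about the proportion of their numbers, and the groups named before them except the Wif1 osteoblasts fewer. Another 91 cells in none of these groups gave 13.3% (10.3%). The reverse was less separate, since Wif1 osteoblasts made up 41.3% of the neighbours of the 15 Mmp9 cells, whose own share was 15.6%, and 36.2% of those of the 91 other cells.

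The first comparison asks how the Wif1 osteoblasts differ from mature osteoblasts, the 130 Col1a1-rich cells with at least 3 Ifitm5 UMIs per 10000 and fewer than 3 Wif1 UMIs in all. The Wif1 osteoblasts had higher levels of Igf1, of IGF binding protein genes and of Tnc and Col3a1, and lower levels of the osteocalcin genes and of Col1a2, Col5a2 and Col11a2. Bglap was at 1302 CPM against 18447 (log2 ratio -3.82, -3.88 to -3.77) and Bglap2 at 702 against 8124 (-3.53). Smpd3, a sphingomyelinase needed for mineralization, was at 52.5 against 454 (-3.09), and Slc13a5, a citrate transporter, at 15.3 against 199 (-3.62). Log2 ratios were taken with 1 CPM added. Of 5734 genes that reached 20 CPM on one side or the other, 988 were 2-fold or more higher (17.2%) and 218 were 2-fold or more lower (3.8%), and the median gene was higher by 0.42 on the log2 scale. Col1a1 was at 79036 CPM and Col1a2 at 74168 in the mature cells, against 19881 and 17769, and such large shares of a total lower the CPM of every other gene there by construction.

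Igf1, a growth factor of bone cells, had the largest ratio of the genes named by the rule. Igf1 was at 177 CPM (160 to 195) against 0.40 (1 UMI; log2 ratio 6.99, 6.16 to 7.81). Its binding proteins Igfbp4 (490 against 36.4 CPM) and Igfbp5 (1008 against 100.2) and the FGF receptor gene Fgfr2 (174 against 34.3) were higher too. In all, 12 of the 15 IGF, FGF and Notch genes compared were 2-fold or more higher and none lower, beside 17.2% and 3.8% of all genes, with a median log2 ratio of 2.26 beside 0.42. Tnfsf11 (83.1 against 7.68 CPM), Csf1 (156 against 15.4) and Ccl2, a monocyte attractant (72.2 against 2.02), were higher and Pth1r (297 against 385 CPM) was not, so 3 of 4 genes of that list were higher. Igf1 was carried by 79 of the 200 cells. Markers of other cell types were higher in the Wif1 osteoblasts too, those of marrow stroma in 4 of 4 genes compared (376 against 30.7 CPM summed over the list) and of fibroblasts in 4 of 5 (1004 against 130.1), beside 17.2% of all genes, and Igf1 itself was at 978 CPM in Cxcl12 cells. The 6 erythroid genes compared were higher as well (23256 against 5798 CPM), but both sums were set by a few cells. Hbb-bs had a median of 251 per 1000000 over the Wif1 osteoblasts and 192 over the mature ones, and was at 281 CPM without the 10 Wif1 osteoblasts richest in it and at 238 without the 2 mature cells with most of it. The part of these RNAs in the result was not tested.

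The collagens split. Col3a1, of loose and growing matrix, was at 2420 CPM against 501, Col12a1, which coats fibrils, at 1351 against 173, and Col6a1, of the cell's own surroundings, at 589 against 72.7. Col5a2 was at 1032 against 3338, Col11a2 at 287 against 2222, and Col22a1 at 92.3 against 577. Of 17 collagen genes compared, 9 were 2-fold or more higher and 6 lower, where 17.2% and 3.8% of all genes were. Of 17 matricellular genes, which encode matrix proteins that steer cells, 10 were higher and 2 lower: Tnc was at 2645 CPM against 122 and Postn (periostin) at 736 against 76.8, while Sparc (osteonectin) was at 10194 against 35764. Among proteases, Mmp13 was at 2221 against 329 CPM and Mmp14 at 633 against 162, and among inhibitors Timp1 was lower, at 459 against 1112. The median log2 ratio was 1.82 for the collagens and 1.46 for the matricellular genes.

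Of 15 mineralization genes compared with mature osteoblasts, 5 were higher and 7 lower, again beside 17.2% and 3.8% of all genes. The early enzyme Alpl was at 1143 CPM against 381, and the phosphate transporter gene Slc20a2 at 184 against 3.23 (log2 ratio 5.45, 4.68 to 6.23). Dmp1 (411 against 292 CPM) and Phex (245 against 162) differed by less than 2-fold. In the Wif1 osteoblasts most of these UMIs lay in the 17 Dmp1-rich cells, without which Dmp1 was at 30.9 and Phex at 42.5. Those cells were chosen by Dmp1 and the mature osteoblasts were not trimmed in that way, so the trimmed levels cannot be set against the mature ones. Ibsp was at 2887 against 7081, and at 1730 without the 17 Dmp1-rich cells, a trimmed level under the same limit. Car3 (a carbonic anhydrase) was at 139.5 against 1012, and Spp1 at 20850 against 13139. Of 22 genes of secretory load and the unfolded protein response, 1 was higher and 7 lower (median -0.38), among them Serpinh1, the collagen chaperone, and Creb3l1, a transcription factor of collagen secretion. Runx2 (214 against 149.5 CPM) and Sp7 (80.9 against 103) differed by less than 2-fold, and of 23 lineage transcription factors 8 were higher and 1 lower.

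Against mature osteoblasts, the Wnt genes other than Wif1 passed 2-fold about as often as all genes did (17.2% higher and 3.8% lower). Of 6 other secreted Wnt antagonists compared, Dkk3 (49.4 against 17.4 CPM) and Sost, whose UMIs all lay in the 17 Dmp1-rich cells, were 2-fold or more higher and none lower, with Sfrp4 at 115 against 78.8. Of 10 ligands, receptors and R-spondins, Rspo3, which raises Wnt signalling, was higher (39.4 against 1.21 CPM). Of 6 genes induced by the pathway, Tnfrsf19 was higher and Tcf7 (16.6 against 58.2 CPM), a transcription factor of the pathway, lower. The median log2 ratios were 0.56, 0.43 and 0.05, beside 0.42 over all genes. Other comparisons differed. Against cells without Wif1, 5 of 8 antagonists were 2-fold or more lower and 1 higher, and 5 of 14 ligands, receptors and R-spondins lower and 1 higher. The shares of all genes there were 13% and 3.84%. Against Aspn fibroblasts these counts were 6 and 1 of 9, and 10 and 2 of 17, beside 10.9% and 6.24% of all genes.

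**Figure D2:**
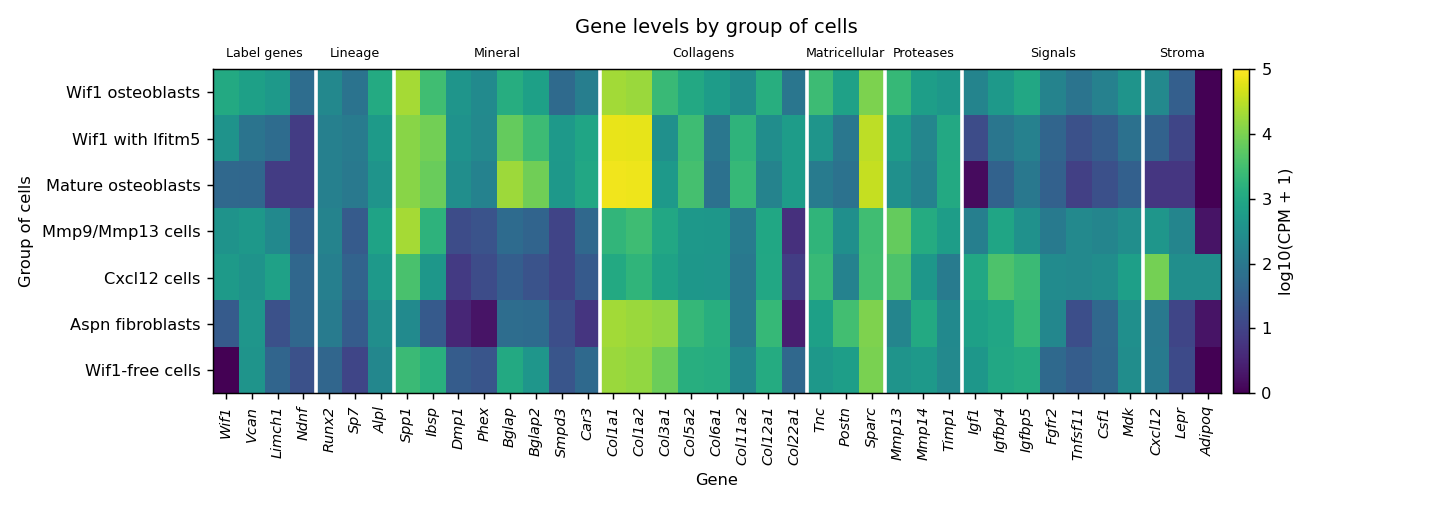
Levels of 39 genes (horizontal axis, grouped by role) in 7 groups of cells (vertical axis) as log10 of CPM plus 1, in colour. Bglap, Bglap2 and Col22a1 are highest in mature osteoblasts and low in the Mmp9/Mmp13 and Cxcl12 cells, with the Wif1 osteoblasts between them, while Igf1, Limch1 and Tnc are lowest or nearly so in mature osteoblasts.

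A second comparison set the Wif1 osteoblasts beside 99 cells with at least 5 UMIs each of Mmp9 and Mmp13, without limits on Col1a1 or Wif1 and with the other limits of the rule. These cells were added after the data had been seen, because only 15 Mmp9 cells met the Col1a1 limit with fewer than 3 Wif1 UMIs. Of 6172 genes, 172 were 2-fold or more higher (2.79%) and 290 lower (4.7%), with a median log2 ratio of -0.13. Wif1 (367 CPM), Vcan (461), Limch1 (239), Alpl (782), Runx2 (172), Tnc (1906) and Spp1 (21186) were found in the Mmp9/Mmp13 cells too. Of 18 collagen genes 10 were higher and 2 lower (median log2 ratio 1.11), with Col5a2 at 1032 against 462 CPM, and Bglap was at 1302 against 54.1 (log2 ratio 4.56, 4.22 to 4.90). Of 16 mineralization genes, 8 were higher and 1 lower (median 1.12), and Dcn (decorin, a small proteoglycan that binds collagen) was at 1405 against 163 CPM. The rule's floor on Col1a1 holds for the first group only and can set collagen differences.

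Lower in the Wif1 osteoblasts than in the Mmp9/Mmp13 cells were Col10a1 (16.2 against 405 CPM), the collagen of hypertrophic cartilage, Tnfsf11 (83.1 against 223), the lipoprotein lipase gene Lpl (17.9 against 343) and Mgp (112 against 729), an inhibitor of mineralization. Genes of other cells moved the same way, namely Rgs5 of pericytes (2.62 against 328), Fabp4 (6.12 against 364) and the neutrophil granule genes Elane (9.62 against 145) and Prtn3 (18.4 against 207). The last 2 turned round, with log2 ratios of 1.79 and 2.01, in cells with at most 5% mitochondrial UMIs, and Elane did so without doublets. In the Mmp9/Mmp13 cells the leukocyte markers summed to 1002 CPM with S100a8 at 495, and the pericyte markers to 530, against 253 and 127 in the Wif1 osteoblasts. Marrow stroma markers, Lpl among them, summed to 1202 CPM there against 376, and endothelial markers to 209 against 30.6. Fibroblast and erythroid markers ran the other way, at 376 and 5966 CPM there against 1004 and 23256 in the Wif1 osteoblasts. The part of these markers in the result was not tested. Il1b (81.8 against 0.80 CPM) met the rule for named genes, but 93.6% of its UMIs came from 1 cell. Against the 15 Mmp9 cells, 626 of 6304 genes were higher (9.93%) and 644 lower (10.2%), and the neutrophil gene S100a9 was at 111 against 9782 CPM. In these 15 cells, which meet the Col1a1 floor too, the collagen difference was smaller, with 6 of 18 genes higher and 2 lower (median log2 ratio 0.24), and Bglap was at 208 CPM.

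The third comparison was with 164 cells rich in Cxcl12 (at least 20 UMIs per 10000), the niche factor of marrow stroma, again without limits on Col1a1 or Wif1 and added after the data had been seen because only 11 such cells met the Col1a1 limit with fewer than 3 Wif1 UMIs. Of 6548 genes, 197 were higher in the Wif1 osteoblasts (3.01%) and 688 lower (10.5%), with a median log2 ratio of -0.23. Limch1 was at 476 CPM against 710, Tnc at 2645 against 2372 and Wif1 at 1073 against 524, so Limch1 was higher in the Cxcl12 cells and Tnc at a like level. Of 16 mineralization genes 12 were higher and 1 lower (median 2.39), with Spp1 at 20850 against 3644 CPM and Ibsp at 2887 against 443. Sp7 (80.9 against 37.3 CPM) was higher as well. All 7 marrow stroma markers other than Cxcl12 were lower, among them Adipoq (0 against 289 CPM), Lepr (32.4 against 289) and Lpl (17.9 against 1704). Igf1 was lower (177 against 978), as was Igfbp4 (490 against 4008), and Mmp13 was at 2221 against 4038. Endothelial markers summed to 665 CPM in the Cxcl12 cells, led by Cdh5, and to 30.6 in the Wif1 osteoblasts, and their part in the result was not tested. With the 11 cells that met the Col1a1 limit, 708 of 6562 genes were higher (10.8%) and 1369 lower (20.9%).

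Set beside the 102 Col1a1-rich cells without a Wif1 UMI, the Wif1 osteoblasts had higher levels of Runx2, Sp7 and Alpl, 3 of the 5 osteoblast lineage markers compared. Col1a2 (17769 against 15253 CPM) and Ibsp (2887 against 1471) differed by less than 2-fold, as did Bglap (1302 against 1072). Col1a1 was at 19881 against 17800 CPM, and without the 17 Dmp1-rich cells Col1a1 was at 13537 and Ibsp at 1730. Runx2 was at 214 against 43.0 CPM, Sp7 at 80.9 against 10.0, Alpl at 1143 against 201, Spp1 at 20850 against 2522 (log2 ratio 3.05) and Limch1 at 476 against 42.0. Of 16 mineralization genes 10 were higher and 1 lower. Dmp1 was among the higher ones, at 411 against 28.0 CPM, but the 17 Dmp1-rich cells held 93.2% of its UMIs. Those cells were chosen by Dmp1 and the cells without Wif1 were not trimmed in that way. The Dmp1 level of 30.9 CPM without the 17 cells therefore cannot be set against 28.0. The same holds for the levels of Col1a1 and Ibsp without the 17 cells. Of 6745 genes 259 were higher (3.84%) and 878 lower (13%), with a median log2 ratio of -0.18. The cells without Wif1 held Col3a1 at 7376 CPM, the tendon gene Tnmd at 557 and the fibroblast genes Pi16 at 126 and Mfap5 at 508, where the Wif1 osteoblasts had 2420, 100.2, 0 and 7.44, and all 5 endothelial markers compared were lower in the Wif1 osteoblasts. Of 7 leukocyte markers compared 5 were lower too (253 against 654 CPM summed over the list), beside 13% of all genes. The 6 erythroid markers compared were higher (23256 against 4778 CPM), beside 3.84%. The part of these RNAs in the result was not tested. The 132 Aspn fibroblasts, with Col1a1 at 20479 CPM, had Spp1 at 246, Ibsp at 24.6, Limch1 at 16.4 and Vcan at 432. Of 6425 genes 401 were higher in the Wif1 osteoblasts than in these fibroblasts (6.24%) and 698 lower (10.9%). Limch1 thus differed between them by far more than Vcan.

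Within the Wif1 osteoblasts, levels turned with Col1a1. Of the 200 cells, 80 had 20 to 49 Col1a1 UMIs per 10000, 68 had 50 to under 200 and 52 had 200 or more, at median depths of 9351, 12000.5 and 12777.5 UMIs. Limch1 went from 839 to 401 and 139 CPM over these 3 classes, Vcan from 1052 to 656 and 316, Tnc from 3540 to 2916 and 1266, Igf1 from 370 to 113 and 26.6, and Alpl from 1463 to 1179 and 723. Wif1 went the same way, from 1337 to 1029 and 813 CPM, and Slc20a2 from 265 to 218 and 48.8. Bglap went up, from 215 to 460 and 3596 CPM, as did Ibsp, from 1091 to 1784 and 6329. Dmp1 was at 47.7, 49.2 and 1273 CPM and Phex at 15.1, 20.9 and 784, and in the top class most of these levels came from Dmp1-rich cells. Without the 17 Dmp1-rich cells, Ibsp in the 39 cells left in the top class was at 2653 CPM, Dmp1 at 53.4 and Phex at 119, while Bglap was at 3539, Limch1 at 172 and Vcan at 374. Sp7 (91.7, 71.3 and 79.8) and Pth1r (329, 268 and 293) kept nearly the same level.

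**Figure D3:**
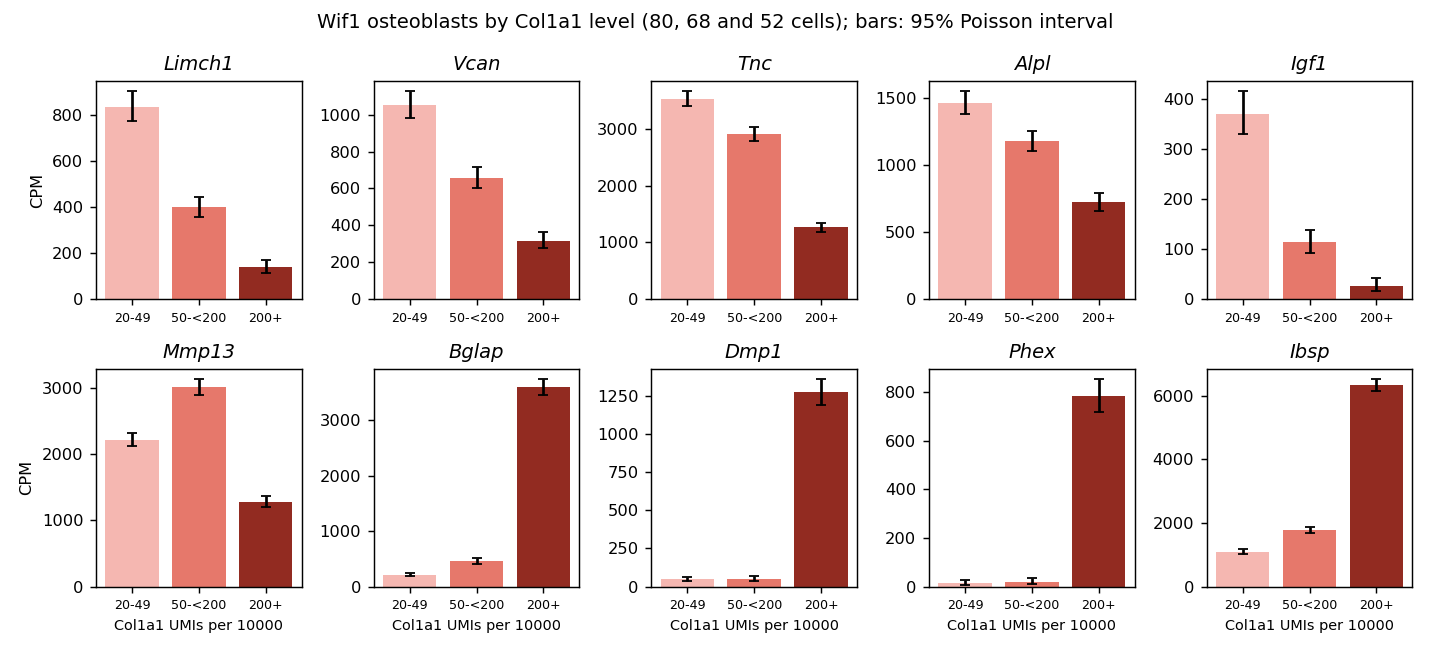
Levels of 10 genes in CPM (vertical axes, from 0) in Wif1 osteoblasts with 20 to 49, 50 to under 200 and 200 or more Col1a1 UMIs per 10000 (horizontal axes), with 95% Poisson intervals for counting error. Limch1, Vcan, Tnc, Alpl and Igf1 are lower in the cells with more Col1a1, while Bglap, Dmp1, Phex and Ibsp are highest in the 52 cells with 200 or more. The 17 Dmp1-rich cells hold most UMIs of Dmp1 and Phex and 45.8% of those of Ibsp.

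Over 198 cells thinned to 5000 UMIs, Spearman's rho of Wif1 was 0.53 with Limch1, 0.42 with Vcan, 0.38 with Tnc and 0.31 with Alpl. Limch1 and Col1a1 had a rho of -0.55, Col1a1 and Tnc -0.54, Vcan and Ibsp -0.53, and Ibsp and Col3a1 -0.61. Vcan and Postn had 0.53 and Postn and Col3a1 0.57. The cells share 1 library, Wif1 and Col1a1 chose them, and levels within a fixed total are not free of each other, so these are descriptions.

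Mmp13 and Bglap were seldom high in the same cells. Mmp13 was absent from 67 cells, at 1 to 9 UMIs in 44 and at 10 or more in 89. Bglap was absent from 76, at 1 to 9 in 87 and at 10 or more in 37. Only 5 cells had 10 or more UMIs of both genes, and of the 37 with much Bglap 28 had no Mmp13 UMI. Median depths were 9892 UMIs in cells without Mmp13 and 11226 in those with 10 or more. Bglap was at 3400 CPM in cells without Mmp13 and 307 in those with 10 or more, and Col1a1 went with it, at 32159 and 12879 CPM, while Limch1 (434 and 512), Alpl (1131 and 1112) and Wif1 (1202 and 999) differed less between these classes. From the cells without Bglap to those with 10 or more, Col1a1 was at 12723, 15778 and 42703 CPM and Limch1 at 462, 526 and 393, so this split ran partly along the one by Col1a1. Timp1, the inhibitor of metalloproteinases, went with Mmp13, at 229, 353 and 666 CPM over the 3 classes of Mmp13, and Tnfsf11 was at 49.4, 64.9 and 115.

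**Figure D4:**
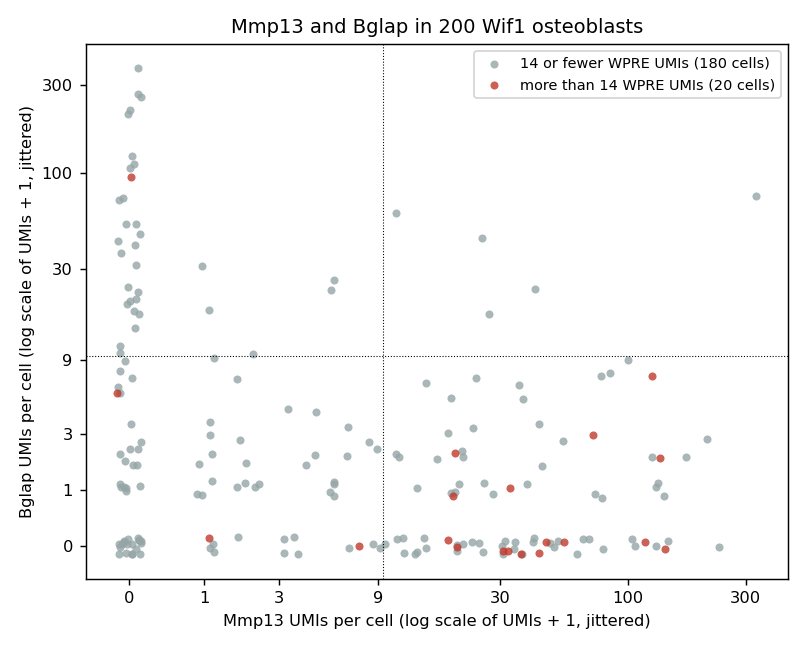
UMIs of Mmp13 (horizontal axis) and Bglap (vertical axis) in each of the 200 Wif1 osteoblasts, both on a log scale of UMIs plus 1 with a small jitter, with cells of more than 14 WPRE UMIs in red and dotted lines just above 9 UMIs. Few cells lie in the upper right, and 16 of the 20 red cells have 10 or more Mmp13 UMIs.

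The reporter addresses how many of the cells descend from HCs, which the study called by more than 14 WPRE UMIs. Of the 200 Wif1 osteoblasts 20 passed it (10%, Clopper-Pearson interval 6.22 to 15). The share was 30% (22.3 to 38.7) in mature osteoblasts, 38.6% (31.1 to 46.4) in the 166 cells with both Wif1 and Ifitm5, 47.5% (37.3 to 57.8) in the Mmp9/Mmp13 cells, 8.54% (4.75 to 13.9) in the Cxcl12 cells and 26.7% (16.1 to 39.7) in the 60 Wif1 cells low in Col1a1. It was 0 of 132 in Aspn fibroblasts, with an upper bound of 2.76%. In leukocytes, which do not descend from HCs, it was 1.22% (0.70 to 1.98), and 2 of the 102 cells without Wif1 passed the cutoff (interval 0.24% to 6.90%). The Wif1 osteoblasts thus lay above leukocytes and under mature osteoblasts and Mmp9/Mmp13 cells, with intervals that do not overlap, and near the Cxcl12 cells, while their interval overlapped that of the cells without Wif1. The cutoff does not allow for depth, which was 18693 UMIs at the median in mature osteoblasts and 10464.5 in Wif1 osteoblasts. As a level, a measure added after the data had been seen, WPRE was at 303 CPM (281 to 327) in Wif1 osteoblasts and 580 (550.1 to 610) in mature osteoblasts. It was at 1222 in Mmp9/Mmp13 cells, 244 in Cxcl12 cells, 112 (92.3 to 135) in cells without Wif1 and 51.0 in leukocytes. By level, the intervals of the Wif1 osteoblasts and of the cells without Wif1 did not overlap, but these intervals count UMIs and not cells. In the cells without Wif1, 36 of the 112 WPRE UMIs lay in 1 cell. The levels therefore do not settle the overlap of the shares. By at least 1 tdTomato UMI the shares were 3% (1.11 to 6.42) in Wif1 osteoblasts, 14.6% (9.03 to 21.9) in mature osteoblasts and 0.92% in leukocytes, whose interval overlapped that of the Wif1 osteoblasts. Over the bands of Wif1 the share by WPRE was 9.09% at 1 UMI and 23.5% at 2, in 22 and 17 cells outside the limit, and inside it 15.1% at 3 to 5 Wif1 UMIs, 11.9% at 6 to 10 and 5.68% above 10, with intervals that overlap (1.12 to 29.2, 6.81 to 49.9, 6.75 to 27.6, 4.91 to 22.9 and 1.87 to 12.8).

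The 20 cells above the WPRE cutoff were poor in collagen III. Of them, 16 had 10 or more Mmp13 UMIs, as did 89 of all 200, and 1 had 10 or more of Bglap, as did 37 of all 200. Both cutoffs count UMIs, and by level Mmp13 was at 3472 against 2052 CPM in the 180 other cells (log2 ratio 0.76), less than 2-fold apart. Col3a1 was at 107 CPM (71.5 to 153) against 2732 (2660 to 2805) in the 180 other Wif1 osteoblasts, and none of the 122 cells with 10 or more Col3a1 UMIs passed the cutoff, while 10 of the 31 with none did. Postn was at 73.6 against 825 CPM, Vcan at 151 against 767, and Ptn, a secreted growth factor, at 29.5 against 364. Gas6, a ligand of receptor kinases, was at 3.68 CPM (1 UMI) against 111 CPM. Tnmd, a tendon gene, was at 0 against 114 CPM, but only 14 of the 180 other cells had a UMI of it. Limch1 (302 against 499 CPM) and Alpl (895 against 1176) differed less. Ibsp was higher, at 7540 against 2260 CPM, with a median of 34.3 per 10000 against 3.96, and Nupr1, a stress-induced regulator, was at 1001 against 333. Dmp1 (1395 against 278 CPM) rested on 5 of the 20 cells. Median depth was 13621.5 UMIs above the cutoff and 10179.5 at or under it.

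Col3a1 was also lower above the cutoff in 3 groups of cells that the rule left out. In mature osteoblasts Col3a1 was at 16.4 CPM in 39 cells above the cutoff and 730 in 91 others, in cells with both Wif1 and Ifitm5 at 98.2 and 478, and in Mmp9/Mmp13 cells at 338 and 1665. Postn ran the same way, at 0 and 113, 38.1 and 134, and 154 and 448. Ibsp was higher above the cutoff in the first 2 of these groups (12012 and 4751, 11142 and 6770) and at a like level in the last (1822 and 1625). Dmp1 turned round, with 147 and 360 CPM in mature osteoblasts. Vcan did as well in the Mmp9/Mmp13 cells, with 528 and 396.

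**Figure D5:**
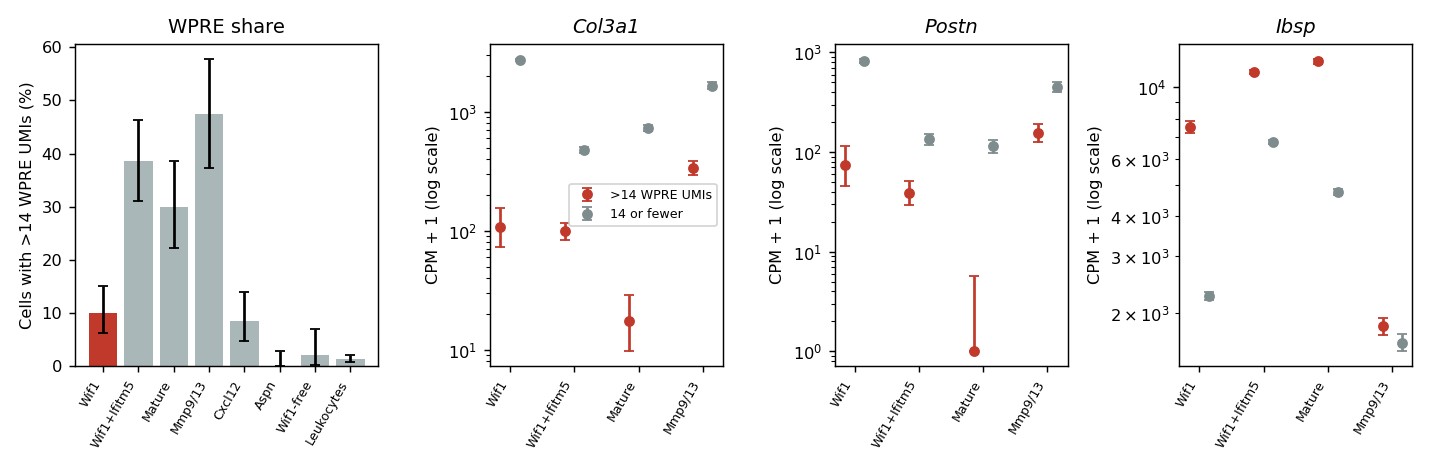
Left, the share of cells with more than 14 WPRE UMIs in percent in 8 groups, with 95% Clopper-Pearson intervals; right, levels of Col3a1, Postn and Ibsp as CPM plus 1 on log axes in 4 groups, for cells above the cutoff (red) and others (grey), with 95% Poisson intervals. In each of the 4 groups the red points lie under the grey ones for Col3a1 and Postn.

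Irx3 and Irx5, the homeobox genes altered in the animal, were both read in the Wif1 osteoblasts. Irx5 was heterozygous in every cell, and the Irx3 deletion applied to cells of the Cre lineage, of which the WPRE cutoff marked 20 of the 200. Irx3 was at 73.5 CPM and found in 94 cells, and mature osteoblasts had 78.4 CPM. Irx5 was at 52.5 CPM and found in 34 cells, and mature osteoblasts had 55.3 CPM. The 2 genes were spread differently: the 17 Dmp1-rich cells held 75% of the Irx5 UMIs and 5.95% of those of Irx3. In the other 183 cells Irx5 was at 14.5 CPM (9.79 to 20.7) and Irx3 at 76.4 (64.9 to 89.3). No wild-type animal was compared, so an effect of either allele was not tested.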

How the data were processed

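Single-cell RNA-seq of tibial cells (10x Genomics) was analysed from count tables. The authors deposited raw UMI counts of each gene in each barcode. The submitters' processing notes name Cell Ranger 3.1.0 and mm10 with tdTomato and WPRE added and Seurat 3. The sources used here name no annotation release. Counts of 98 exogenous sequences came from a second deposited count matrix, joined by barcode.

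The members and gene lists were chosen with earlier results of these data known. Levels are UMIs summed over a group per 1000000 (CPM) with exact Poisson intervals, and shares have Clopper-Pearson intervals, at 95%. Log2 ratios had 1 CPM added and an interval by the delta method, and genes with 20 CPM in either group were compared. Ratios and intervals were tried on simulated counts with counting error only. Differences between cells were left out there, so the trial does not show how the intervals hold for UMIs concentrated in a few cells. Genes of the rule were left out of counts of genes past 2-fold and of the 2000 variable genes and 20 principal components used for neighbours. A count of 0 was taken to allow 3 counts. Genes named were the markers, up to 6 members of a list, and the 10 genes a direction with the largest ratio among those with 50 CPM, 100 UMIs and the same direction on both sides of the WPRE cutoff. Genes named within the cells or by WPRE were chosen after their values were seen. Scrublet marked 588 barcodes (4.15% of all barcodes), which were kept. Python 3.11.15, numpy 2.4.6, scipy 1.17.1, pandas 2.3.3, scanpy 1.11.5 and matplotlib 3.10.9 were used. Median depth was 8235 UMIs per barcode. Names of groups are rules on gene counts and may differ from the study's clusters.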

Additional observations from a re-analysis of the deposited data

Results flagged for a closer look

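The matrix of exogenous sequences, which no comparison uses apart from WPRE and tdTomato, held 12 EGFP UMIs in Wif1 osteoblasts, above the 3 counts that a count of 0 allows. They lay in 9 of the 200 cells, 4 of them in 1 cell, and made 5.25 UMIs per 1000000 (3 counts would be 1.31). Of these, 7 lay in 4 of the 17 cells with 5 or more Dmp1 UMIs, and all 4 of those cells had an Irx5 UMI, as did 12 of the 17. The other 5 lay in 5 cells, of which 0 had an Irx5 UMI. The 8256 barcodes kept held 58 EGFP UMIs in 51 cells, 35 of which had an Irx5 UMI, as did 904 of all 8256. The 1308 leukocytes held 1 EGFP UMI, the 166 cells with both Wif1 and Ifitm5 held 6 and the 130 mature osteoblasts 3. Where the EGFP sequence comes from in this animal was not tested.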

How the results depend on the processing

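No paired analysis was possible because all cells came from 1 library of 1 animal. Of 140 named log2 ratios under 13 settings, 1813 of 1820 values kept their sign. These ratios were named for being the largest in each direction, so a kept sign says little. A change in the CPM added, or in the limit on which genes are compared, cannot turn a sign. Of the values that kept it, 282 were marked as moved in size and 1531 as the same. The other 7 values changed sign. With at most 5% mitochondrial UMIs (59 Wif1 osteoblasts), Rgs5 against cells without Wif1 came to 0.49 and, against Mmp9/Mmp13 cells, Elane to 1.79 and Prtn3 to 2.01. Elane came to 1.63 without doublets. Il1b against Cxcl12 cells came to -0.033 with at least 5 Wif1 UMIs, -0.062 with 3 per 10000 and -0.076 without doublets. The cause was not tested.

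Counts of genes past 2-fold that moved by over 1.5 times are given as higher and lower. With at most 5% mitochondrial UMIs they were 274 and 748 against Mmp9/Mmp13 cells, 940 and 1487 against the 15 Mmp9 cells, 1111 and 2568 against the 11 Cxcl12 cells, and 1470, 1136 and 1190 lower against cells without Wif1, Cxcl12 cells and Aspn fibroblasts. With 10 CPM added they were 110 and 161 (Mmp9/Mmp13), 394 and 385 (15 Mmp9 cells), and 563, 164, 438 and 250 higher (mature, without Wif1, 11 Cxcl12 cells, Aspn). At 50 CPM fewer genes were compared, with 413 and 139 (mature), 137 and 394 (without Wif1), 187 and 222 (15 Mmp9 cells), 204 and 633 (11 Cxcl12 cells), 84 and 131 (Mmp9/Mmp13), 106 and 359 (Cxcl12) and 202 and 373 (Aspn). With 1 UMI in each group more were compared, with 2621 and 427, 632 and 2110, 642 and 896 (Mmp9/Mmp13), 608 and 1442 (Cxcl12) and 913 and 1506 (Aspn), the first 2 pairs being mature and without Wif1, and 1503 and 2389 lower against the 15 and 11 cells.

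The WPRE share was 3% by at least 1 tdTomato UMI and 13.5% by more than 5 WPRE UMIs. Thinned to 3000 UMIs, Limch1 was found in 57.0% and Alpl in 85.5% of cells. With 1 animal, variation between animals is unknown, and depth limits shares of low genes such as Ndnf.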
